A study of Mus musculus with 18 samples.

Results

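CTCF binding in liver was compared between mice whose hepatocytes delete Ctcf (KO) and control mice (WT), in 4 of the 18 ChIP-seq libraries of a liver chromatin study. The members are the 4 CTCF peak lists, KO160 and KO163 from CTCF fl/fl mice with Albcre, and WT164 and WT165 from CTCF fl/fl mice without it, 2 libraries per genotype. All 4 came from C57BL/6 males aged 8 weeks on chow, fasted overnight, and both genotypes carried the floxed alleles. The labels give each library its own number, taken here as an animal number, and do not state that the animals were independent or from different litters. P-values therefore measure at most the spread between these libraries, and the site-by-site test below takes that spread largely from many sites together. Nuclei were fixed and sonicated, chromatin was immunoprecipitated with 1 CTCF antibody, and libraries were made by tagmentation.

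CTCF is a zinc-finger protein that recognises a long GC-rich motif. Most of its sites are shared between tissues, and at many of them it stops the cohesin ring as cohesin extrudes a chromatin loop, so that bound sites become loop anchors and domain boundaries. It also separates enhancers from promoters at imprinted genes and helps choose promoters in the protocadherin clusters. The albumin promoter drives Cre in hepatocytes, and Kupffer, stellate, endothelial and blood cells are not its known targets. The peak lists hold no measure of Ctcf deletion. In whole liver, fewer cells with CTCF at a site and less CTCF in each cell cannot be told apart. Neither can be told apart from a general difference in enrichment between the KO and the WT libraries, which was not tested.

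The motif was looked for where CTCF sites fall on promoters for which RefSeq sequence (GRCm38.p6) was at hand. A 7-letter core of the CTCF motif was searched on both strands as 4 words. These were AGGGGGC as the first word, AGGTGGC as the second, AGAGGGC as the next and AGATGGC as the last. The search covered windows of 300 bases (250 before and 50 after each gene start). Of all 32585 windows, 27.7% held a word (95% Wilson interval 27.3 to 28.2). Of the 1358 windows under a site called in all 4 libraries 54.9% did (52.3 to 57.6), and of the 30543 windows with no CTCF site 26.1% did (25.6 to 26.6). Windows under sites of both WT that neither KO library called held a word in 58 of 116 cases. Windows can overlap or share a site, and the intervals count them as independent, so they may be too narrow. The words are rich in G and C, and windows with and without a site were not matched on base composition. The words may overlap motifs of other factors, and a match is a description of the letters and not a mapped binding site.

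Both sets below show the word with 30 bases either side as far as the window reaches, and the capitals mark the word. The first set shows the promoter words at the 3 largest falls of fold in KO among sites that held such a word. The second shows those at the 3 smallest differences among such sites. Larger falls lay elsewhere and are named below. All 6 come from the stronger part of the sites by WT fold, and their KO-minus-WT differences chose them. Each runs 5′ to 3′ along the strand of its gene, and words that begin with GCC are the reverse complements of those above.
Camk1d: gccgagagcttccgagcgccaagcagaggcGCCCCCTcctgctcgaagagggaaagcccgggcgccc
Gm11998: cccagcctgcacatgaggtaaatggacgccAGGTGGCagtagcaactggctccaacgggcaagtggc
Espn: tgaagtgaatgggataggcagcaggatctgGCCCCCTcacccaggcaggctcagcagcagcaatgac
Khk: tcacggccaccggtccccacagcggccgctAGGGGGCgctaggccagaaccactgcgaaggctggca
Mrpl34: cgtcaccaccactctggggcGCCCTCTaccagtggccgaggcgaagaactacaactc
Gm29183: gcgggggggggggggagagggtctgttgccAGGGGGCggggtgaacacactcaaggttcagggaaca
The falls lie at chr2:5714846-5714912 (minus strand) in the promoter of Camk1d, a calmodulin-dependent kinase, at chr11:11557290-11557356 (plus) at Gm11998 and at chr4:152136506-152136572 (minus) at Espn, which encodes an actin-bundling protein. The small differences lie at chr5:30921410-30921476 (plus) at Khk, the fructose kinase of liver, at chr8:71464676-71464732 (plus) at Mrpl34, a mitochondrial ribosome protein, and at chr1:73827041-73827107 (minus) at Gm29183. The distance from the word to the WT summit was 61, 65 and 161 bp at the falls and 5, 43 and 581 bp at the small differences. The last of these words is far from the summit of its site.

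At the Camk1d promoter the fold enrichment was 5.10 and 4.59 in KO160 and KO163, against 12.4 and 13.96 in WT164 and WT165. The fold is the authors' value at the summit of a peak, the fragment pileup over the local background. Gm11998 had folds of 4.92 and 6.44 in the KO libraries, against 15.7 and 14.7 in the WT libraries. Espn had 4.07 and 6.98 in KO, against 18.3 and 11.2 in WT, and there the WT libraries were themselves far apart. Khk had 15.4 and 14.3 in KO, against 13.7 and 16.1 in WT. Mrpl34 had 13.8 and 15.2 in KO, against 15.3 and 13.6 in WT, so that at both of these promoters the genotypes overlapped. Across the 595 promoter sites called in all 4 that held a word inside the site, the word lay within 50 bp of the summit in 55.5% and the median KO-minus-WT difference of log2 fold was -0.28. It was -0.34 across the 559 promoter sites where no word was found in the part of the site inside a window. The rest of these sites was not searched. The limma test given below called 14 of the 595 sites with a word and 13 of the 559 where none was found lower in KO. It called 2.06% of all sites tested.

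The lists were of unequal length. On chromosomes 1 to 19 and X, KO160 held 18597 peaks and KO163 20323, against 27580 in WT164 and 24565 in WT165. They covered 11.8 and 13.9 Mb in KO, against 19.6 and 14.4 Mb in WT. Read totals are not in the lists, so depth is known only through the pileups. The deposited fold and p-value of a peak together fix its summit pileup and its local background, and these were recovered for every peak. At sites called in all 4 libraries the median summit was 20 and 19 fragments high in KO, against 26 and 22 in WT. Such a summit carries a counting error of 22.4% and 22.9% in KO and 19.6% and 21.3% in WT, before any difference between animals. The lowest local background moves with depth and with how the peaks were called. It was 0.962 and 0.805 fragments in KO, against 0.848 and 0.791 in WT. KO163 lay between the WT libraries and KO160 above both. Whether depth differed between the genotypes was not tested.

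CTCF peaks were lower in the KO libraries across the genome, at a ratio of 0.80 at the median site, and most stayed called. Peaks of the 4 lists that overlapped by 1 bp or more were joined into 30021 sites. Of these, 15934 (53.1%) were called in all 4 libraries, 2964 in both WT and neither KO, 3145 in both WT and 1 KO, and 50 in both KO and neither WT. At the sites called in all 4, the median fold was 8.83 in KO160 and 9.62 in KO163, against 12.4 in WT164 and 11.1 in WT165. Both KO medians lay below both WT medians. Per site, the mean log2 fold was lower in KO by a median difference of -0.32 (quartiles -0.55 and -0.10), a ratio of 0.80. The library medians differed by -0.35 on the log2 scale, against a pooled SD of 0.10 between libraries of 1 genotype (n = 2 and 2). A two-sided exact permutation test of the 4 library medians gave p = 0.333, which is the smallest that 2 against 2 can give, so this test cannot call the general fall.

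The size of the fall depended on which libraries were paired. KO160 was lower than WT164 by a median of -0.46 and than WT165 by -0.28. KO163 was lower than WT164 by -0.36 and than WT165 by -0.17. Within genotypes, KO160 was below KO163 by -0.11, and WT164 was above WT165 by 0.19. The smallest difference between genotypes, KO163 against WT165, was thus about the size of the difference between the WT libraries. Across the 15934 sites, Pearson's r of log2 fold was 0.76 between the KO libraries, 0.73 between the WT libraries and 0.67 to 0.74 between genotypes. Sites are not independent replicates, and they share library, background and base composition.

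**Figure D1:**
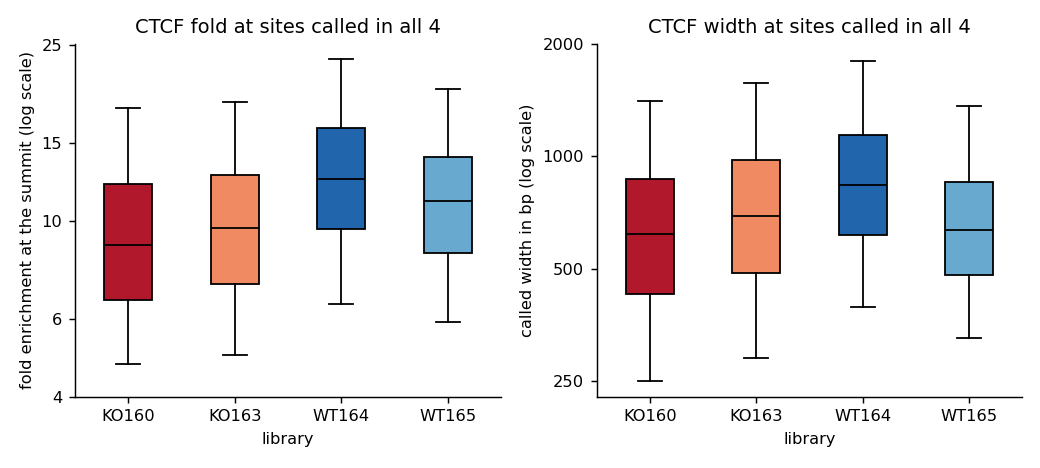
Fold enrichment (left) and called width in bp (right), both on log axes, at the 15934 sites called in all 4 libraries. Boxes span the quartiles with the median as a line, and whiskers reach the 5th and 95th percentiles over sites. Median fold was 8.83 and 9.62 in KO160 and KO163 against 12.4 and 11.1 in WT164 and WT165, whereas the WT165 median width of 637 bp lies between the KO medians of 621 and 694 bp.

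Site by site, both KO folds lay below both WT folds at 7980 sites, 50.1% of all tested, and above both at 541, or 3.4%. At the remaining 7413 sites the genotypes overlapped. The limma test on log2 fold (Benjamini-Hochberg adjusted p under 0.05 over the 15934 sites) called 328 sites lower in KO, 2.06% of those tested, and 0 higher (0%). At an unadjusted p under 0.05 it gave 3288 lower and 34 higher. Its standard errors were drawn largely from sites of like mean fold, so the spread at a single site entered little. The count moved with the scaling and with the libraries used. With each library centred on its own median the test called 0 sites in either direction (unadjusted 579 lower and 848 higher, lowest adjusted p = 0.296), without KO160 it called 0, without WT164 18 and without KO163 180. With a library left out, 1 genotype has a single library that is assumed to vary like the other genotype, and other sites enter the fit. The median difference was then -0.27 without KO160, -0.23 without WT164 and -0.37 without KO163. With only peaks of −log10 q of at least 10 it called 1 of 8989 sites, and with 50% reciprocal overlap 98 of 8996. With the pileup over the genome background in place of the fold, an alternative added after the data were seen, it called 570 lower.

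The called sites had strong peaks in WT and weak ones in KO, which follows from their choice on these same folds. Their median fold was 6.67 in KO, against 14.96 in WT, and their differences ran from -1.73 to -0.81 (median -1.12), while the sites that did not pass had a median difference of -0.31. Their places in the genome resembled those of all sites. Of the called sites 12.8% lay at a gene end (within 1 kb of a start, or of either end where strand was not known), 46.0% in a gene body and 41.2% between genes, against 12.2%, 42.7% and 45.1% of all sites tested. A WT H3K27ac peak, the mark of active promoters and enhancers, overlapped 12.2% of them and 15.5% of all. A neighbouring CTCF site within 10 kb was present for 38.4% of them and 35.2% of all.

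The largest fall lay in the body of Grin2b, which encodes an NMDA-type glutamate receptor subunit (chr6:135827838-135828784). Its fold was 4.46 and 5.05 in KO160 and KO163, against 14.5 and 17.1 in WT164 and WT165, and its summit was 10 and 10 fragments high in KO, against 33 and 30 in WT. The log2 difference was -1.73 (SE 0.33, limma adjusted p = 0.0013). A site 133 kb from Camk1g, another calmodulin-dependent kinase gene, had folds of 6.72 and 6.87 in KO, against 21.6 and 17.98 in WT (chr1:193503482-193504694). Its log2 difference was -1.54 (SE 0.30, limma adjusted p = 0.00201). In both of these sites the genotypes were far apart and the libraries of each genotype close together.

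Inside Mycbp2, a ubiquitin ligase gene, the fold was 4.46 and 6.00 in KO, against 14.3 and 14.99 in WT. Inside Ube2cbp it was 5.61 and 4.99 in KO, against 13.5 and 15.6 in WT. At both sites the KO and WT folds were far apart. Inside Slc26a11, an anion transporter gene, the fold was 7.13 and 5.66 in KO, against 18.5 and 15.98 in WT. Inside Myh14, a non-muscle myosin gene, it was 4.41 and 5.83 in KO, against 14.7 and 12.7 in WT. The 4930512M02Rik site is the one that covers the Gm11998 promoter. Inside Gosr2, a Golgi SNARE gene, the fold was 3.78 in KO160 and 12.6 in KO163, against 20.3 and 17.0 in WT. This fall thus rested largely on KO160. The limma SE there was 0.31, against 0.33 at the Camk1d promoter, where the KO libraries were close together. All of these sites, the Camk1d promoter and the 4930512M02Rik site included, had a limma adjusted p of 0.00985. None of the named falls had an H3K27ac peak in WT, and the Camk1d site alone overlapped an H3K4me3 peak, the mark of active promoters. The gene is the nearest protein-coding one, and expression was not measured in these files.

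**Figure D2:**
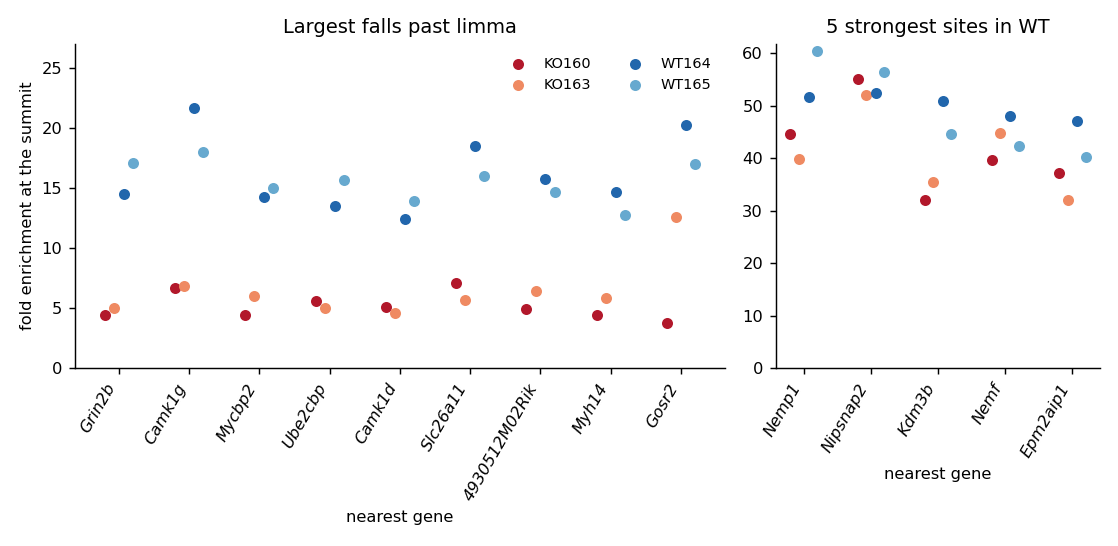
Fold enrichment in each library (points) at the named falls past the limma test (left) and the 5 strongest sites in WT (right), named by the nearest gene. At the left both KO points lie below both WT points at every site, with KO163 at Gosr2 at 12.6, while at Nipsnap2 the KO folds of 55.0 and 52.1 overlap the WT folds of 52.5 and 56.4.

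No site passed as higher in KO. The largest differences in that direction among sites without overlap lay near Zfp78, a zinc-finger gene, with folds of 15.3 and 13.3 in KO, against 6.40 and 8.94 in WT (limma adjusted p = 0.0835), and in the body of Syn2, a synaptic vesicle gene, with 12.5 and 14.2 in KO, against 7.70 and 6.81 in WT (adjusted p = 0.10). The other 8 sites of this kind had log2 differences of 0.73 to 0.87 and adjusted p of 0.0867 to 0.169.

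The strongest CTCF sites kept high peaks. These are the 5 sites with the highest mean WT fold, a choice that by itself favours WT folds above KO folds. Near Nemp1 the fold was 44.6 and 39.9 in KO, against 51.7 and 60.4 in WT, and near Kdm3b, a histone demethylase gene, it was 32.1 and 35.5 in KO, against 50.9 and 44.7 in WT. At both the KO values lay below the WT values, and the same held near Epm2aip1, with 37.2 and 32.1 in KO against 47.1 and 40.2 in WT. At the start of Nipsnap2 the fold was 55.0 and 52.1 in KO, against 52.5 and 56.4 in WT, and near Nemf 39.8 and 44.9 in KO, against 48.2 and 42.4 in WT, so that these 2 sites overlapped. None of the 5 passed limma (log2 differences -0.50 to -0.02, adjusted p 0.172 to 0.96).

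Whether the same sites fell in separate pairs of libraries was asked by sorting sites on 1 pair and reading the other. When the 15934 sites were put in 5 equal groups by KO160 minus WT164, the median difference of KO163 minus WT165 was -0.28 in the group with the largest falls and -0.10 in the group with the smallest. It was -0.20, -0.16 and -0.13 in between. With the pairs recombined, sorting by KO160 minus WT165 gave medians of KO163 minus WT164 from -0.46 to -0.28. The order was kept in both pairings. The medians lay far closer together in the pair that was read than in the sorting pair, where they ran from -1.03 to 0.09 in the first pairing. Pearson's r between the 2 differences was 0.15 and 0.16 over 15934 sites, and differences made of pileups this low carry much counting error.

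Peak width moved less plainly than fold. At the sites called in all 4 the median width was 621 and 694 bp in KO160 and KO163, against 838 and 637 bp in WT164 and WT165. WT165 lay between the KO libraries. The median KO-minus-WT difference of log2 width was -0.16 (quartiles -0.46 and 0.12), the library medians differed by -0.15 against a pooled SD of 0.21, and the exact permutation p was 0.667. Without WT164 the difference was 0.01, so its direction rested on that library. Both KO widths lay below both WT widths at 26.4% of sites and above both at 9.11%.

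At equal fold, KO peaks were not narrower than those of both WT libraries. Peaks with a fold of 8 to 10 had a median width of 614 and 646 bp in KO, against 623 and 538 bp in WT. Those with a fold of 20 to 25 had 1055 and 1112 bp in KO, against 1143 and 832 bp in WT. WT165 had the narrowest peaks of the 4 libraries in each of the 4 fold ranges examined, of which the lowest was 5 to 6.

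Loss of the call followed WT strength. Sites of WT164 were put in 10 equal bins by their WT164 fold. In the weakest bin, with a median fold of 4.33, KO160 called 8.61% (95% Wilson interval 7.61 to 9.73) and KO163 13.6% (12.4 to 15.0), against 29.8% (28.1 to 31.5) in WT165. In bin 5, with a median fold of 8.45, KO160 called 67.3% and KO163 77.1%, against 93.9% in WT165. In the strongest bin, at a median fold of 21.1, KO160 called 99.85% and KO163 99.9%, against 100% in WT165. The other WT library thus also missed weak sites, but fewer than either KO library in each of the 10 bins. Over all WT164 sites the shares were 64.05% in KO160 and 69.6% in KO163, against 81.5% in WT165. Intervals cover counting error only.

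**Figure D3:**
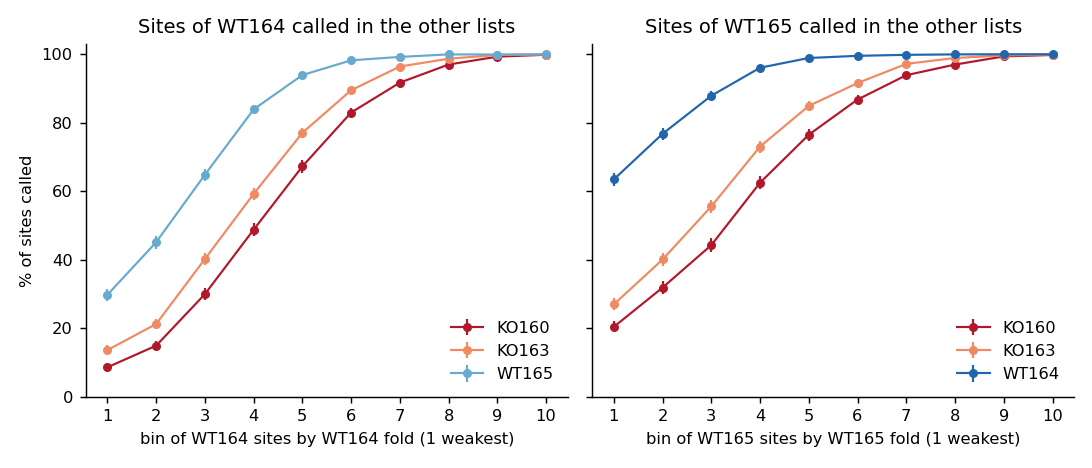
Percentage of the sites of WT164 (left) and of WT165 (right) that were called in each of the other 3 libraries, in 10 equal bins of the fold of that WT library. Bars are 95% Wilson intervals. In the weakest WT164 bin 8.61% and 13.6% were called in KO160 and KO163 against 29.8% in WT165, and in the strongest bin all 3 libraries called over 99%.

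Read from the KO side, few sites were particular to KO. Of the 17923 sites of KO160, KO163 called 90.6%, WT164 96.7% and WT165 94.98%. Of the 19750 sites of KO163, KO160 called 82.2%, WT164 95.3% and WT165 92.9%. The 50 sites called in both KO and neither WT were weak, with median folds of 4.70 and 4.99 in KO160 and KO163 and none above 9.55. The 2964 sites lost from both KO had median folds of 5.95 and 5.84 in WT164 and WT165 on summits of 12 and 11 fragments. At the 3145 sites of both WT that 1 KO library kept, KO163 was that library at 2189 and KO160 at 956.

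The fold at retained sites fell at every strength. The 22043 sites of both WT were binned by WT164, and the KO folds were set against WT165, so that the binning library was not in the difference. Both KO libraries called 14.9% of bin 1, 33.7% of bin 2, 79.8% of bin 5 and 99.8% of bin 10, or 72.3% over all bins. Neither KO library called 56.8% of bin 1, while in bin 10 it was 0 of 2204, for which the Wilson upper limit is 0.174%. The median log2 difference from WT165 was -0.22 in KO160 and -0.15 in KO163 in bin 1. It was -0.33 and -0.22 in bin 5, and -0.19 and -0.12 in bin 10. With bins from WT165 and differences from WT164 it was -0.40 and -0.33 in bin 1, -0.48 and -0.38 in bin 5 and -0.44 and -0.36 in bin 10. No bin was above 0 in any of the 4 pairs. In weak bins a site enters only where the KO peaks passed the calling threshold, so that the fall there is bounded by the choice of sites.

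Width differed with strength in both binnings. Against WT165 the log2 width difference was -0.16 in KO160 and -0.05 in KO163 in bin 1, and 0.10 and 0.22 in bin 10. Against WT164 it was -0.49 and -0.34 in bin 1, and -0.29 and -0.18 in bin 10. The sign in the strong bins thus depended on the WT library, and the KO peaks were relatively wider at strong than at weak sites against either one.

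**Figure D4:**
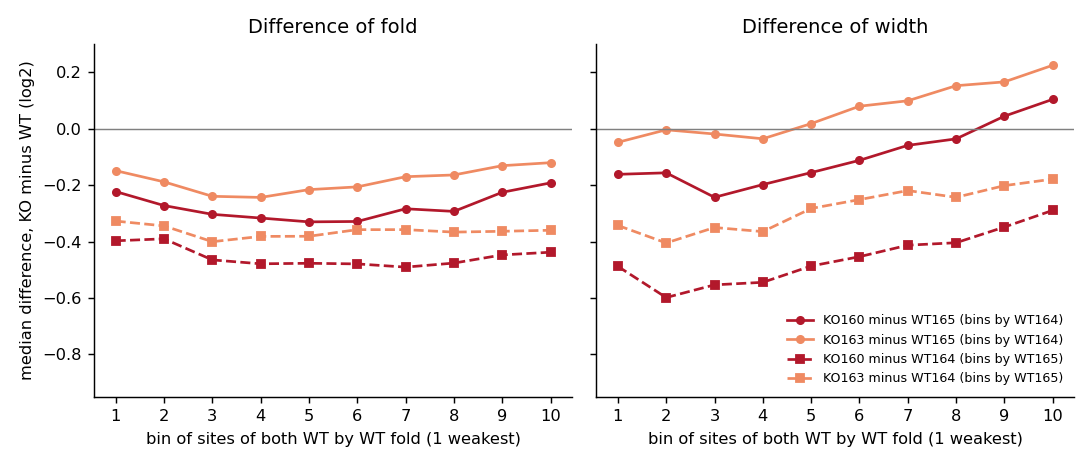
Median KO-minus-WT difference of log2 fold (left) and log2 width (right) at sites called in all 4 libraries, in 10 bins of WT fold. Each line is 1 KO library set against the WT library that did not make the bins. The fold lines stay below 0 in every bin (KO163 minus WT165 is -0.15 in bin 1 and -0.12 in bin 10), and the width lines end higher in bin 10 than they begin in bin 1.

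Genome location made little difference once WT strength was matched. Sites of a class were set against other sites of the same WT fold bin and the same spacing class, in each of the 4 pairs of a KO with a WT library. Gene-end sites (1937) differed from others by -0.03 to 0.03 on the log2 scale over the 4 pairs, without a constant sign. Gene-body sites (6803) fell slightly more, by -0.05 to -0.02, and sites between genes (7194) slightly less, by 0.02 to 0.04. Each of these kept its sign in all 4 pairs beside a general difference of -0.32. The pairs share libraries, and gene-body and between-gene sites are largely each other's comparison, so these signs are not independent.

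Sites on active chromatin differed little as well. Those under a WT H3K4me3 peak (1637) differed from others by -0.02 to 0.07, without a constant sign. Sites in an H3K27ac peak of all 3 WT (2469) had a smaller fall by 0.02 to 0.08, and the 415 sites under a PPARg peak of both WT, a nuclear receptor of fat storage genes, by 0.02 to 0.13. The H3K27ac value was near 0 when only peaks with a −log10 q of at least 10 were used. The upper end of both ranges came from pairs with WT164. H3K27ac sites had median folds of 9.41 and 9.83 in KO, against 12.3 and 11.2 in WT. PPARg sites had 10.03 and 10.5 in KO, against 12.4 and 11.9 in WT.

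Retention matched in the same way was close too. At like WT164 fold, both KO libraries called 76.3% of gene-end sites against 73.6% of others, 69.8% of gene-body sites against 71.7%, and 73.7% of sites between genes against 73.1%. For sites under an H3K4me3 peak it was 77.1% against 74.0%, for H3K27ac 75.9% against 72.6%, and for PPARg 75.9% against 73.3%. At like WT165 fold the gaps were smaller for gene ends (76.3% against 74.4%), H3K4me3 (77.1% against 75.2%) and H3K27ac (75.9% against 73.5%). Gene-body sites had 69.8% against 71.4%. For sites between genes the gap was slightly wider, at 73.7% against 73.0%. For PPARg the gap was gone, at 75.87% against 75.95%. No test was run on these shares because sites are not replicates of a condition.

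**Figure D5:**
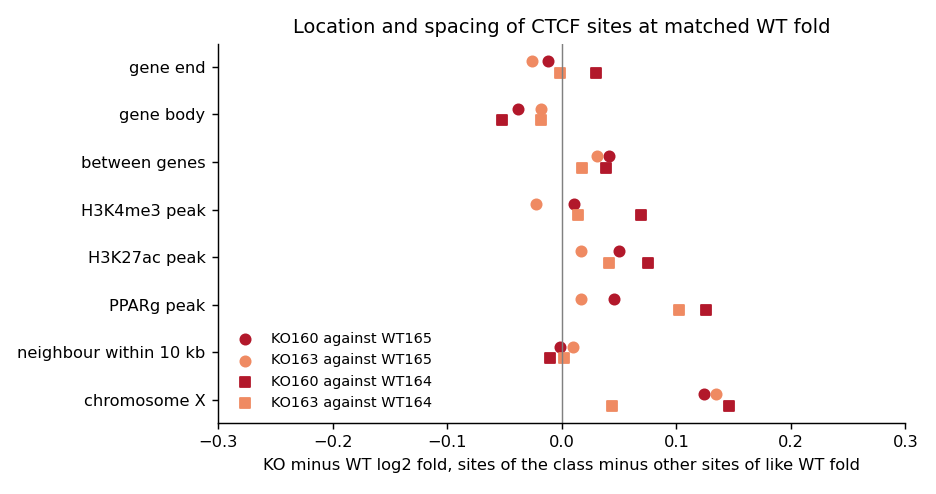
KO-minus-WT log2 fold of the sites of a class minus that of other sites of like WT fold, for the 4 pairs of a KO library (colour) with a WT library (circles against WT165, squares against WT164). Gene ends and neighbouring sites lie around 0 (-0.03 to 0.03 and -0.01 to 0.01), and chromosome X lies to the right at 0.04 to 0.15.

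Spacing along the chromosome made no visible difference to the fold. The sites of both WT had a median distance of 18.1 kb to the next one. Sites with a neighbour within 10 kb (5605) differed from lone sites of like fold and location by -0.01 to 0.01. The median difference was -0.32 for gaps under 5 kb, -0.31 for 5 to 20 kb, -0.32 for 20 to 100 kb and -0.33 beyond 100 kb. The share called in both KO was 73.2%, 74.4%, 72.3% and 63.0% in these classes, and the last class also had the lowest median WT fold at 11.1, against 11.7 to 12.02 in the others. At matched WT fold and location, sites with a close neighbour were called in both KO in 74.2% of cases, against 73.3% of lone sites.

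Chromosomes were alike except X. Median differences on the autosomes ran from -0.34 to -0.27. On X, at 263 sites called in all 4, the median difference was -0.24, and at like WT fold and spacing X sites fell less than autosomal ones by 0.04 to 0.15 in the 4 pairs. All animals were male with a single X, and the median X fold was 7.136 and 7.202 in KO, against 9.20 and 7.82 in WT. Relative to the autosomes this was a ratio of 0.80 and 0.74 in KO, against 0.73 and 0.70 in WT, so KO163 and WT164 differed by little. Of the X sites of both WT that could be matched, 56.3% were called in both KO, against 55.1% of autosomal sites of the same low WT fold.

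CTCF sites were then read at 13 gene lists, counting sites within 5 kb of a gene. These lists were drawn up with earlier results of the same data known. The site given for a gene is its site with the highest mean WT fold. That choice by itself favours WT folds above KO folds. Over all 15934 sites the median difference was -0.32, 83.8% were below 0, both KO folds lay below both WT folds at 50.1% and limma called 2.06% lower. Genes of CTCF, cohesin and their partners had 25 sites called in all 4 with a median of -0.32. Of these 22 were below 0, 13 had both KO folds below both WT folds (50.1% of all sites) and 0 passed limma (2.06% of all). At Nipbl, the cohesin loader, the fold was 7.14 and 8.31 in KO, against 15.7 and 13.96 in WT (limma adjusted p = 0.0706). At Stag2, a cohesin subunit, it was 10.7 and 6.65 in KO, against 11.9 and 20.1 in WT (adjusted p = 0.0863). At Ctcf itself the fold was 7.14 and 5.54 in KO, against 8.66 and 13.4 in WT (limma adjusted p = 0.155). At Esco1, a cohesin acetyltransferase, the values overlapped at 20.2 and 18.8 in KO against 24.9 and 16.7 in WT.

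Imprinted genes had 21 such sites with a median of -0.43, of which 17 were below 0. At 11 both KO folds lay below both WT folds (50.1% of all sites), and 1 passed, where 2.06% of all sites did. That site lay in Kcnk9, a potassium channel gene (chr15:72516662-72517773), with folds of 5.61 and 4.99 in KO, against 12.99 and 12.3 in WT (log2 difference -1.26, SE 0.33, limma adjusted p = 0.0197). Near Phlda2 the fold was 7.58 and 13.96 in KO, against 17.7 and 15.1 in WT, and in Grb10, a growth factor adaptor gene, it was 10.7 and 9.97 in KO, against 15.2 and 12.8 in WT. Neither passed, with adjusted p of 0.166 and 0.393. Of 8 sites at clustered protocadherins, adhesion genes of neurons, 4 were called in all 4, with differences of -0.90 to -0.27, and 2 of these had both KO folds below both WT folds. Of the 8, 3 were called in neither KO, against 13.4% of all sites of both WT. The 11 Hox sites, at genes of body patterning, had a median of -0.04. They ran from -0.60, at a site shared by Hoxa3, Hoxa6 and Hoxa7, to 0.28 near Hoxc8, with 8 below 0, 5 with both KO folds below both WT folds and 0 past the test.

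Genes of hepatocyte identity had 20 sites with a median of -0.15, of which 15 were below 0, 8 had both KO folds below both WT folds (50.1% of all sites) and 0 passed (2.06% of all). In Hnf4a, a master regulator of hepatocytes, the fold was 15.0 and 20.3 in KO, against 19.7 and 17.5 in WT. In Apob, the core protein of lipoproteins, it was 16.3 and 18.3 in KO, against 21.1 and 13.96 in WT. Both overlapped between genotypes. Near Fgg, a fibrinogen chain, it was 7.65 and 12.2 in KO, against 15.9 and 15.1 in WT, without overlap (limma adjusted p = 0.168). Xenobiotic metabolism genes had 12 sites with a median of -0.30, 11 of them below 0, 4 with both KO folds below both WT folds, and 0 passed.

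Genes of lipid storage and PPARG targets had 28 sites with a median of -0.34, of which 22 were below 0, 15 had both KO folds below both WT folds (50.1% of all sites) and 1 passed (2.06% of all). That site lay at Acly, the enzyme that makes cytosolic acetyl-CoA for fat synthesis, with folds of 4.07 and 4.05 in KO, against 12.2 and 6.66 in WT (log2 difference -1.15, SE 0.30, limma adjusted p = 0.0197). The WT folds there were themselves apart. In Plin2, a lipid droplet coat gene, the fold was 9.15 and 15.8 in KO, against 16.7 and 16.5 in WT, and in Plin1 it was 9.33 and 11.7 in KO, against 17.9 and 16.8 in WT. At Dgat2, the last enzyme of triglyceride synthesis, it was 29.6 and 29.8 in KO, against 32.6 and 42.3 in WT. None of the 3 overlapped, and none passed (adjusted p of 0.323, 0.122 and 0.406).

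Housekeeping genes had 16 sites with a median of -0.41, of which 14 were below 0 (83.8% of all sites). At 9 both KO folds lay below both WT folds (50.1% of all sites), and 0 passed (2.06% of all). Ppia, a protein-folding isomerase, ran the other way with 20.4 and 18.3 in KO, against 17.3 and 14.2 in WT (limma adjusted p = 0.518). Markers of liver cells other than hepatocytes had few sites, since marker genes of a cell type need not carry CTCF. Stellate cell markers had 9 sites with a median of -0.25, endothelial markers 8 with -0.39, lymphocyte markers 3 with -0.79, Kupffer cell markers 2 with -0.33 and the cholangiocyte marker Sox9 1 with -0.53. All of these were below 0, as were 83.8% of all sites, and 0 passed, where 2.06% of all did. Both KO folds lay below both WT folds at 4 of the stellate, 6 of the endothelial, 3 of the lymphocyte and 1 of the Kupffer cell sites and at the Sox9 site. Over all sites this held at 50.1%. CTCF binds alike in many cell types, so these sites do not count the cells, and the share of other cells in the livers was not tested.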

How the data were processed

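ChIP-seq peak lists of CTCF from 4 livers (2 KO, 2 WT) were used as deposited, 1 list per library. Per the submitters' processing notes, the tools were MACS2 2.1.2, BWA 0.7.12, deepTools 3.1.3 and Picard 1.77, on mm10. The control used for peak calling is not given in the sources used here. The fold enrichment of a peak is the authors' deposited ratio at its summit, beside a deposited −log10 p and −log10 q, with a lowest q near 0.001 in the CTCF lists. Blacklisted regions and patches had been removed, per the labels of the lists. WT H3K4me3, H3K27ac and PPARg lists were used for position only.

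Peaks on chromosomes 1 to 19 and X that overlapped by 1 bp were joined. Each library took the highest fold and the summed width of its peaks in a site. Log2 folds of the 15934 sites called in all 4 libraries were tested by limma 3.58.1 under R 4.3.3 (trend, no pseudocount, no scaling), with Benjamini-Hochberg adjustment. Summit pileup and background were solved from the deposited fold, taken as (pileup + 1) over (background + 1), and a Poisson p, to within 0.01 in −log10 p. Shares carry 95% Wilson intervals. Gene positions are RefSeq protein-coding genes of GRCm38.p6, with start and strand where the sequence table held them. Of 281 list entries 278 matched a gene.

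Named sites were the 10 largest falls (1 of which is not reported here) and rises past limma, filled with sites whose genotypes do not overlap, the 5 strongest in WT, and list members by WT fold. List members outside the first 3 by WT fold (Ctcf, Nipbl, Kcnk9, Grb10, Acly and Hoxc8) were chosen after their values were seen. Members and lists were chosen with earlier results of these data known. Alternatives were a stricter q, 50% reciprocal overlap, 1 peak per library, centring, the upper part by WT fold, each library left out, no trend, swapped bins, wider gene ends and spacing.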

Additional observations from a re-analysis of the deposited data

How the results depend on the processing

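Of 127 values under other settings, covering 14 results, 99 stayed within the spread between libraries (or within 1.5 times, for counts), 27 moved further and 1 reversed. Of the 99, 4 small values changed sign: the width difference without WT164 (0.0118), H3K4me3 without KO163 (0.0138), and spacing at the stricter q (-0.0024) and without KO163 (-0.00017). The number of sites lower in KO by limma, 328 as reported, was 1 of 8989 with only peaks of −log10 q of at least 10, 98 of 8996 with 50% reciprocal overlap, 191 of 10606 in the upper part by WT fold, 570 with the pileup over the genome background (added after the data were seen), and 0 to 264 with 1 library left out. It was 0 with each library centred on its median, and the median difference of log2 fold was then 0.027, which centring sets near 0 by construction. The number higher in KO was 0 in every one of these settings. The median difference of log2 fold stayed between -0.41 and -0.23 with 1 library left out. The share of sites of both WT called in both KO, 72.3%, was 65.0% at the stricter q, 51.7% with reciprocal overlap, 96.2% in the upper part and 59.5 to 82.2% with 1 library left out, where leaving out a library loosens the rule by construction. Differences in the weakest and strongest bin, -0.19 and -0.16, were 0.039 and 0.069 when centred and -0.36 and -0.40 with the WT libraries swapped. Swapping also moved the matched values of gene ends to 0.014, of H3K4me3 to 0.042, of H3K27ac to 0.058, of PPARg to 0.11 and of spacing to -0.0045. H3K27ac was 0.0038 at the stricter q and -0.0024 with reciprocal overlap, and spacing was -0.0070 with it. Beyond what centring and a left-out library do by construction, the cause of these moves was not tested. No paired analysis was possible because KO and WT libraries share no number. Summits of about 20 fragments limit what a single site can show.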
